A study of Homo sapiens with 4 samples.

Results

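The MYC-MAX-MXD network is a set of basic helix-loop-helix leucine zipper transcription factors that pair with MAX or with its relative MLX. The 10 genes described here, MYC, MAX, MXD1, MXD3, MXD4, MXI1, MNT, MGA, MLX and MLXIP, were taken by gene symbol from a table of RNA-seq counts for 15575 genes, and all 10 were found in it. The rule names no measured value, but the set was proposed with earlier results of these data known. The cells were U251, an established human GBM (glioblastoma) cell line, at 72 h after lentiviral transduction. The 2 Ctrl libraries, whose titles carry the name pGreen, came from U251 cells given a control shRNA, and the 2 PRMT3-KD libraries from U251 cells given an shRNA against PRMT3, a protein arginine methyltransferase. The sources used here do not say which PRMT3 shRNA was used, nor whether the 2 libraries of a group came from separate cultures or infections, so the p-values below measure the spread between these libraries, which may be technical.

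MYC binds DNA as a heterodimer with MAX, mostly at E-boxes (CACGTG) near the start sites of growth genes, and raises their transcription. The MXD proteins and MNT also bind E-boxes with MAX, but they bring in the SIN3-HDAC corepressor, so that MYC and the MXD proteins work against each other for the same partner and the same sites. MGA joins MAX in a Polycomb repressor complex called PRC1.6. MLX pairs with MLXIP (MondoA), which carries glucose-6-phosphate signals to the nucleus, and can also pair with MXD1, MXD4 and MNT. MYC is widely known in GBM as a driver of growth and of glycolysis.

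Library totals lay between 24804250 and 29756313 counts, and the lowest count of any of the 10 genes was 105, for MXI1 in the first PRMT3-KD library. PRMT3 had 535 and 535 counts in Ctrl and 77 and 45 in PRMT3-KD libraries. Its level fell from 19.4 ± 0.0998 to 2.31 ± 1.02 CPM, with a log2 fold change of -3.08 (standard error, SE, 0.314, adjusted p = 0.0177, edgeR), and its adjusted p was 0.0764 and 0.0604 without the first and the second Ctrl library. CPM here and below are counts per 1000000 counts on edgeR's TMM scale, given as mean ± SD over the 2 libraries of a group. The adjusted p is from edgeR's two-sided quasi-likelihood test with Benjamini-Hochberg adjustment over 13172 genes. The SE was derived from that test, as the size of the log2 fold change divided by the square root of the F statistic. The 2 Ctrl libraries differed little beyond counting error, their chi-square divided by its degrees of freedom being 1.41 over 13004 genes, whereas it was 66.7 over 12997 genes for the 2 PRMT3-KD libraries. VIM, NES, SOX2 and CD44, which U251 cells share with other GBM cells, were abundant, at 132 CPM or more in every library, and so was SOX9. Other glial markers were scarcer, with 49 to 80 counts of S100B and 373 to 961 counts of FABP7. GFAP had 363 and 392 counts in Ctrl and 32 and 153 in PRMT3-KD libraries, and OLIG2 had no entry in the count table. Of the immune markers PTPRC had 2 to 7 counts and CSF1R 63 to 149, and of the oligodendrocyte markers MOG had 1 to 7 and MBP 3 to 13. In bulk RNA, fewer cells of a type and less RNA per cell cannot be told apart, and this holds for all values below.

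All 4 MXD repressor genes had lower values in each PRMT3-KD library than in either Ctrl library, and MXD3 and MXI1 passed the threshold, which asks for an adjusted p under 0.05 and for more than 1.5-fold. MYC also lay lower in both PRMT3-KD libraries, by 1.48-fold on the means, and did not pass it. The PRMT3-KD means of MAX, MNT and MLX were 104%, 98.3% and 95.7% of the Ctrl means, that of MGA was 116%, and MLXIP differed between the 2 PRMT3-KD libraries. The 10 genes passed the filter on low counts, 2 of 10 passed the threshold as lower and 0 as higher, beside 5.97% of all genes tested as lower and 4.97% as higher. In edgeR, 4 of the 10 had an unadjusted p under 0.05, all of them lower, which is near the 37.6% of all genes tested with such a p in either direction, and neither DESeq2 nor limma-voom called any of the 10 higher. The groups did not overlap for 9 of the 10, with 7 lower and 2 higher, where 33.8% of all genes tested had non-overlapping groups with lower PRMT3-KD values and 33.3% with higher ones. The median log2 fold change of the 10 genes was -0.40, and that of all genes tested was 0.0055.

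**Figure D1:**
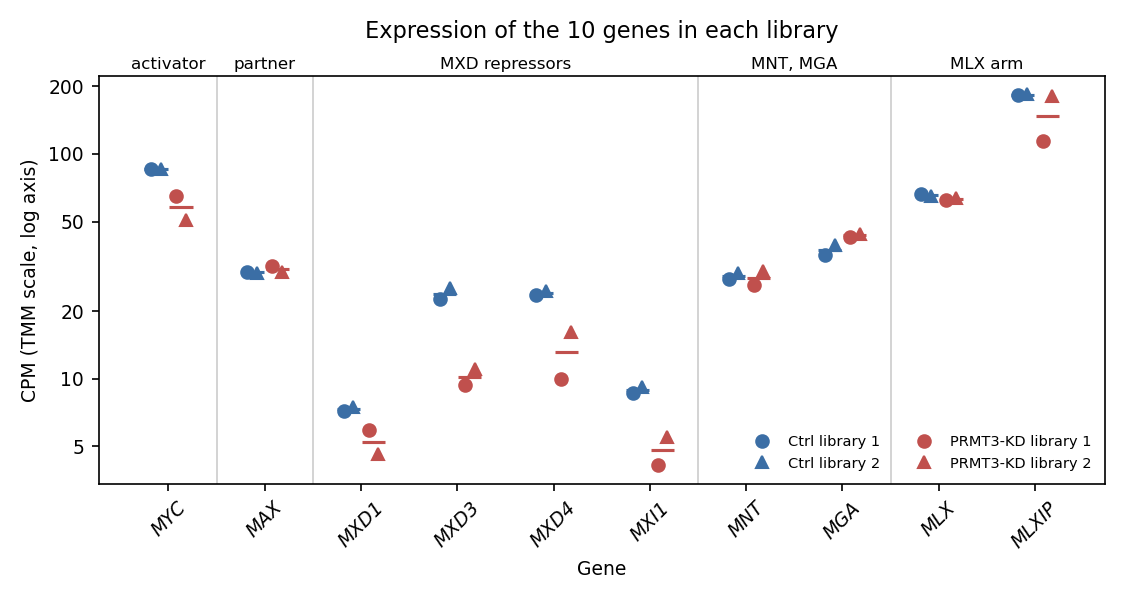
CPM of the 10 genes in each library on a log axis, grouped by role, with a circle for replicate 1, a triangle for replicate 2 and a short line for the group mean. The 4 MXD repressor genes and MYC lie lower in both PRMT3-KD libraries, whereas MAX, MNT and MLX lie close to the Ctrl level.

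MYC (ENSG00000136997, on chromosome 8), the activator of the network, had 86.0 and 85.9 CPM in Ctrl and 65.2 and 50.9 CPM in PRMT3-KD libraries, from 2382, 2363, 1657 and 1445 counts. The Ctrl values were nearly equal and both PRMT3-KD values were below them. The mean was 85.9 ± 0.0439 CPM in Ctrl and 58.0 ± 10.2 CPM, or 67.5% of Ctrl, in PRMT3-KD libraries, with a log2 fold change of -0.57 (SE 0.138). The adjusted p was 0.0588 in edgeR, so that MYC missed both parts of the threshold, since 1.5-fold is 0.58 on the log2 scale. With DESeq2 the adjusted p was 0.0114 and with limma-voom it was 0.0139, and in both the change was called once the fold threshold was dropped. Without the first PRMT3-KD library, the log2 fold change of MYC was -0.75 in edgeR, and without the second it was -0.40, which is short of 1.5-fold. Without the first or the second Ctrl library its adjusted p was 0.355 and 0.339 (edgeR). Of the other MYC family genes, MYCL had 22 and 35 counts in Ctrl and 37 and 56 in PRMT3-KD libraries (log2 fold change 0.73, SE 0.356, adjusted p = 0.214, edgeR). MYCN had no entry in the count table, so no value can be given for it.

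MAX (ENSG00000125952, chr14:65472892-65569413, GRCh37, minus strand), the partner of MYC, the MXD proteins, MNT and MGA, had 29.7 and 29.7 CPM in Ctrl and 31.8 and 29.7 CPM in PRMT3-KD libraries. The second PRMT3-KD library was above the higher Ctrl value by less than the rounding of these figures, and the first was clearly above it. The log2 fold change was 0.05 (SE 0.0887, adjusted p = 0.711, edgeR). Its exons share 13.1% of their bases with FNTB on the other strand, none of them in the canonical transcript, and the sources used here do not say whether counting used strand.

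The MXD genes encode the repressors that displace MYC from MAX, mostly as cells leave the cycle and differentiate, with the exception of MXD3, which is known from dividing cells. MXD3 (ENSG00000213347, chr5:176728462-176739758, GRCh37, minus strand) fell most of the 10 genes, from 22.6 and 25.2 CPM in Ctrl to 9.37 and 11.02 CPM in PRMT3-KD libraries. The mean went from 23.9 ± 1.86 to 10.2 ± 1.17 CPM, or to 42.7% of Ctrl, and the drop was several times the spread in either group. The log2 fold change was -1.23 (SE 0.135, adjusted p = 0.0188, edgeR). It passed the threshold in edgeR, DESeq2 and limma-voom, and without either Ctrl library, where the spread comes from the PRMT3-KD libraries alone and 0 genes of the table pass in edgeR, its adjusted p was 0.131 and 0.156. The exon union of MXD3 shares 19.5% of its bases with RAB24 on the same strand and 24.2% with PRELID1 on the other strand. Its canonical transcript shares 0 bases with either. The sources used here do not say which exons were counted, and the part of this overlap in the values of MXD3 was not tested.

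MXI1 (ENSG00000119950, chr10:111967363-112047123, GRCh37, plus strand), also named MXD2 and known as a gene that HIF1 can switch on, had 8.63 and 9.23 CPM in Ctrl and 4.13 and 5.49 CPM in PRMT3-KD libraries. Both PRMT3-KD values were below both Ctrl values, and the first was the lower of the 2. The mean fell from 8.93 ± 0.430 to 4.81 ± 0.960 CPM, or to 53.9% of Ctrl (log2 fold change -0.89, SE 0.195, adjusted p = 0.0482, edgeR). This call lay close to the threshold. It held in DESeq2 (adjusted p = 0.0169) and was lost in limma-voom (adjusted p = 0.0602), with the replicate number as a block (adjusted p = 0.0504, edgeR), and without either Ctrl library (adjusted p = 0.339 and 0.381, edgeR).

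MXD4 (ENSG00000123933, chr4:2249159-2263836, GRCh37, minus strand), abundant in resting and differentiated cells, had 23.7 and 24.4 CPM in Ctrl and 9.998 and 16.2 CPM in PRMT3-KD libraries. The 2 PRMT3-KD libraries stood apart, at log2 differences of -1.26 and -0.57 from the Ctrl mean. The PRMT3-KD mean was 54.4% of Ctrl, close to the value of MXI1, with a larger SE (log2 fold change -0.87, SE 0.247, adjusted p = 0.0776, edgeR). MXD4 was called in DESeq2 (adjusted p = 0.0114), in limma-voom (adjusted p = 0.0231) and with the replicate number as a block (log2 fold change -0.91, adjusted p = 0.0412, edgeR). Its log2 fold change was -1.27 without the second PRMT3-KD library and -0.57 without the first, which is short of 1.5-fold. In these fits the spread comes from the Ctrl pair alone. MXD4 was not called without the first or the second Ctrl library, at -0.90 and -0.85, where the spread comes from the PRMT3-KD libraries alone.

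MXD1 (ENSG00000059728, chr2:70124820-70170077, GRCh37, plus strand), the founding MXD gene, had 7.18 and 7.45 CPM in Ctrl and 5.90 and 4.61 CPM in PRMT3-KD libraries. Its groups did not overlap, and here the second PRMT3-KD library was the lower, as for MYC and unlike MXD3, MXD4 and MXI1. The log2 fold change was -0.48 (SE 0.185, adjusted p = 0.141, edgeR), and no test of all 4 libraries called it. Its log2 fold change was -0.66 without the first PRMT3-KD library and -0.31 without the second, where the spread comes from the Ctrl pair alone. Its adjusted p was 0.603 and 0.643 without the first and the second Ctrl library (edgeR).

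The promoters of these genes were searched for E-boxes, the site that dimers of the network bind. RefSeq promoters (GRCh38.p14, 250 bases before to 50 after a start site) were found for 9 of the 10 genes, 14 promoters in all, and MYC had no entry. The E-box CACGTG, which reads the same on both strands, stood in 1 promoter each of MXD4, MNT and MLX, that is in 3 of 14 promoters, in 7.26% of all 35116 promoters of this length and in 9.01% of the 14953 promoters of tested genes. The related CACGCG, searched on both strands (CGCGTG on the other), stood in 1 promoter each of MXD3, MXI1 and MGA, where no CACGTG was found, in 11.4% of all promoters and in 16.8% of those of tested genes. The windows of 30 bases around the sites of the MXD genes and, for comparison, of MNT and MLX follow 5′ to 3′ on the strand of the gene, with the 6 matched bases in capitals.
MXD3, chr5:177312727-177312756, minus strand: aaaaggccatttCGCGTGcctccagggtat
MXI1, chr10:110225992-110226021, plus strand: aggtaaacaaacCACGCGcgggctgcccgc
MXD4, chr4:2262330-2262359, minus strand: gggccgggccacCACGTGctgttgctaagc
MNT, chr17:2401236-2401265, minus strand: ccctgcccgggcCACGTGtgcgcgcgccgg
MLX, chr17:42567038-42567067, plus strand: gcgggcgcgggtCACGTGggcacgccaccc
A site was thus present in genes that fell and in genes that did not pass the test, and its letters alone do not show binding.

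The 3′ UTRs were read for the 7-base sequence CAGCTCA, which an earlier scan of these same libraries had linked with lower expression, so its presence is no independent evidence. On the sense strand of the GENCODE canonical transcripts it occurred 1 time each in MXD1, MXD4 and MXI1, in UTRs of 4661, 3112 and 2378 bases, and 0 times in the other 7 genes. That is 3 of 10 genes, beside 17.5% of 12650 tested genes with a 3′ UTR of at least 50 bases. The windows of MXD1 and MXI1 below are on GRCh37, 5′ to 3′ on the strand of the gene, with the 7 bases in capitals.
MXD1, chr2:70166049-70166077, plus strand: ctggggttgcaCAGCTCAtcaaagttcca
MXI1, chr10:112045357-112045385, plus strand: ggatcatcatgCAGCTCAactttctgttg
MXD3, the gene with the largest drop of the 10, has a 3′ UTR of 378 bases with 0 copies. Over the 12650 tested genes with such a 3′ UTR, the median log2 fold change was -0.11 with the sequence and 0.03 without it. The sequence was picked from these same libraries, so this contrast is no independent evidence either.

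MNT (ENSG00000070444, chr17:2287367-2304398, GRCh37, minus strand), a repressor that most cells hold at a steady level, had 27.6 and 29.4 CPM in Ctrl and 26.0 and 30.1 CPM in PRMT3-KD libraries. The PRMT3-KD values lay on both sides of the Ctrl values, and MNT was the only one of the 10 genes whose groups overlapped. The log2 fold change was -0.02 (SE 0.113, adjusted p = 0.901, edgeR), and it turned to 0.02 without the second Ctrl library and to 0.08 without the first PRMT3-KD library. MGA (ENSG00000174197, chr15:41913332-42065279, GRCh37, plus strand), the largest protein of the network, had 35.5 and 39.4 CPM in Ctrl and 42.6 and 44.1 CPM in PRMT3-KD libraries. Both PRMT3-KD values were higher, at log2 differences of 0.19 and 0.24 from the Ctrl mean, where the Ctrl libraries differed from each other by 0.15 (log2 fold change 0.21, SE 0.0936, adjusted p = 0.181, edgeR).

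MLX (ENSG00000108788, chr17:40719090-40725257, GRCh37, plus strand), the counterpart of MAX in the glucose-sensing arm, had 66.6 and 65.1 CPM in Ctrl and 62.5 and 63.5 CPM in PRMT3-KD libraries. The groups did not overlap, but the log2 fold change was only -0.06 (SE 0.0712, adjusted p = 0.565, edgeR). Its exons share 18.2% of their bases with PSMC3IP on the other strand, all 775 of these bases lie in its canonical transcript of 2360 bases, and 1 pseudogene, MLXP1, is named for it. MLXIP (ENSG00000175727, chr12:122516628-122631894, GRCh37, plus strand), which encodes MondoA, had 183 and 184 CPM in Ctrl and 114 and 180 CPM in PRMT3-KD libraries, from 5066, 5058, 2904 and 5126 counts. The first PRMT3-KD library was far below Ctrl and the second was close to it, at log2 differences of -0.68 and -0.02. The log2 fold change was -0.31 (SE 0.229, adjusted p = 0.377, edgeR). It was -0.69 without the second PRMT3-KD library and -0.02 without the first. MLXIPL, the paralog known as ChREBP, had 11 and 12 counts in Ctrl and 10 and 18 in PRMT3-KD libraries (log2 fold change 0.31, adjusted p = 0.621, edgeR).

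**Figure D2:**
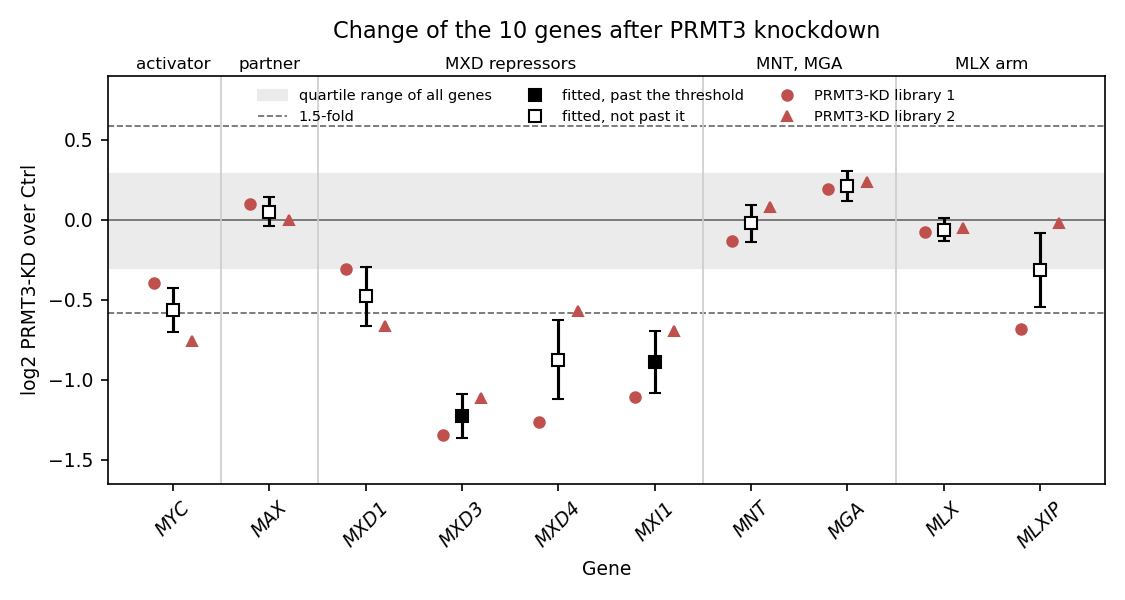
Log2 fold change (PRMT3-KD over Ctrl) of the 10 genes as squares with standard errors derived from the F statistic, filled where past the threshold. Each PRMT3-KD library against the Ctrl mean is a circle or triangle. The grey band runs from the lower to the upper quartile of all genes tested (-0.30 to 0.29), and the dashed lines mark 1.5-fold. MXD3 and MXI1 are filled, and MLXIP and MXD4 show the widest gaps between libraries.

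Levels of different genes were compared per kilobase of exon, with the union of annotated exons as the length. In Ctrl libraries MLX (15.5 ± 0.251 CPM per kilobase), MYC (14.1 ± 0.00719) and MLXIP (13.2 ± 0.0532) stood at the top, well above MXD3 (5.03 ± 0.393), MAX (4.74 ± 0.00421), MXD4 (3.4997 ± 0.0777) and MNT (3.28 ± 0.141). MGA (1.87 ± 0.138), MXI1 (1.51 ± 0.0728) and MXD1 (1.15 ± 0.0301) closed the order. Of the neighbours in it, MXD3 and MAX did not differ beyond the spread of MXD3, and MXD4 and MNT differed by little more than theirs. MXD3 moved from place 4 in Ctrl to place 7 in PRMT3-KD libraries, where its level was 2.15 ± 0.246, and MXD4 moved from place 6 to place 8, at 1.91 ± 0.637. In PRMT3-KD libraries MGA (2.16 ± 0.0508, place 6), MXD3 and MXD4 lay within the spread of MXD3 and MXD4, so their places there are not distinct. The order depends on the length used. Per kilobase of the canonical transcript, which for MXD3 is 1067 bases of an exon union of 4743, MXD3 stood at 22.4 ± 1.75 in Ctrl, in place 3 and within its spread of MYC (23.1 ± 0.0118) and MLXIP (21.8 ± 0.0878), and at 9.55 ± 1.09 in PRMT3-KD libraries, in place 5.

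**Figure D3:**
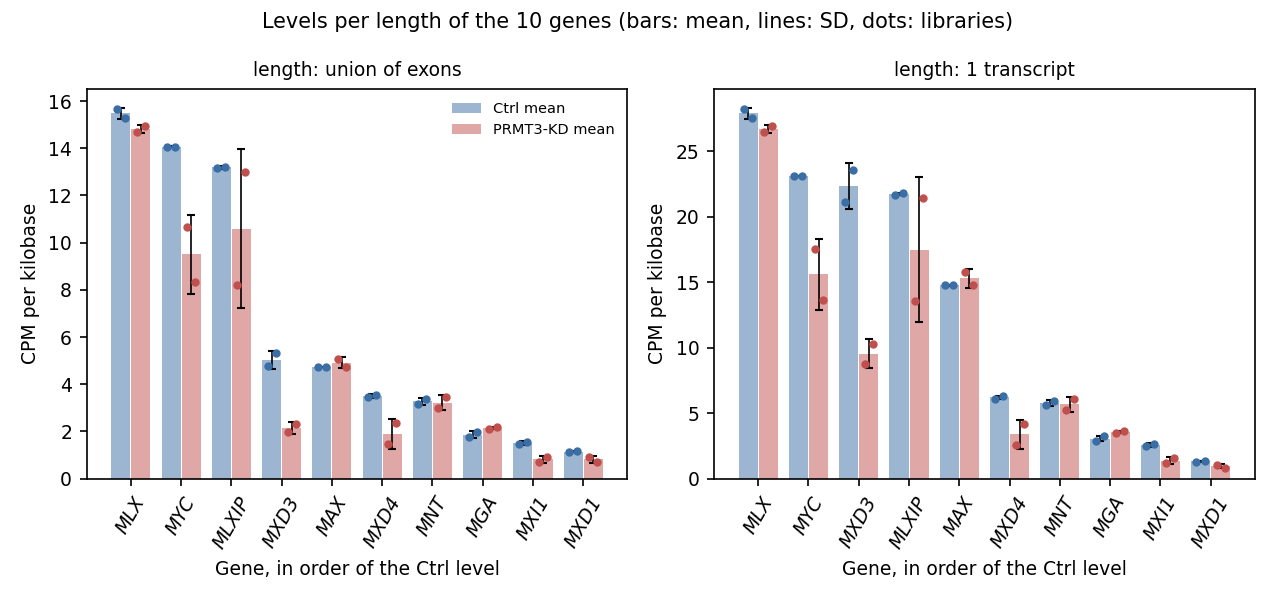
CPM per kilobase of the 10 genes, with the exon union as the length on the left and 1 canonical transcript on the right. Bars are group means, lines the SD over 2 libraries and dots the libraries. MXD3 stands in place 4 in Ctrl on the left and in place 3 on the right, and is lower in both PRMT3-KD libraries in both panels.

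Sums of these levels describe the balance between activator and repressor transcripts. The 4 MXD genes together had 10.8 and 11.6 CPM per kilobase of exon union in Ctrl and 5.06 and 6.33 in PRMT3-KD libraries, with no overlap. The ratio of MYC to this sum was 1.30 and 1.21 in Ctrl and 2.11 and 1.31 in PRMT3-KD libraries, so that the second PRMT3-KD library lay next to Ctrl. With MNT and MGA added to the repressors, the ratio was 0.894 and 0.830 in Ctrl and 1.05 and 0.695 in PRMT3-KD libraries, and the groups overlapped. The ratio of MYC to MAX was lower in both PRMT3-KD libraries, at 2.10 and 1.75 beside 2.96 and 2.97 in Ctrl. The ratio of MNT to the 4 MXD genes was higher in both, at 0.591 and 0.545 beside 0.294 and 0.291. With 2 libraries a group, the smallest p of an exact permutation test (two-sided) is 0.333, so these ratios are given without a test. With the canonical transcript as the length, MYC over the 4 MXD genes was 0.744 and 0.680 in Ctrl and 1.29 and 0.808 in PRMT3-KD libraries. MYC over MAX was then 1.56 and 1.56 in Ctrl and 1.11 and 0.925 in PRMT3-KD libraries. The size of these ratios thus depends on the length used.

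For MYC and the 2 genes past the threshold, the genes with the nearest pattern were sought by the root mean square distance of log2 CPM, centred on each gene's mean, over the 4 libraries. NCAPD3, a condensin subunit, was nearest to MYC (distance 0.0144), before CENPT, a kinetochore protein (0.0188), and RBM14 (0.0195). PLD2 was nearest to MXD3 (0.0403), and the genes nearest to MXI1 were CDC42EP1 (0.0197), CTNND2 (0.0236) and VSIG10 (0.0352). Over 4 libraries in 2 groups, many genes lie near any pattern, so the distances only name neighbours.

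As a base for the lists below, 5.97% of all genes tested were lower past the threshold in edgeR and 4.97% higher. In either direction, 13.9% passed in DESeq2 and 12.8% in limma-voom. Genes that act on or under the network were followed in 9 lists of well-known members, which hold 190 tested genes. Of these, 16 were lower and 3 higher past the threshold, with a median log2 fold change of -0.07. The number past it depended on which library was left out, as it did for all genes tested. The genes that act on MYC transcription or on its mRNA, such as CTCF and the IGF2BP genes, had 0 of 19 past the threshold in edgeR, 2 in DESeq2 and 1 in limma-voom, with 10 of 19 at an unadjusted p under 0.05 in edgeR, beside the 37.6% of all genes tested, and a median of -0.09. The list of MYC protein turnover had 4 of 24 lower, or 16.7%, and 0 higher, with a median of -0.29. AURKA, a mitotic kinase that shields MYC from FBXW7, fell from 140 and 136 to 80.6 and 62.7 CPM (log2 fold change -0.95, SE 0.140, adjusted p = 0.0246, edgeR). SET, an inhibitor of the phosphatase PP2A, fell from 438 and 434 to 260 and 244 CPM, and GSK3A, a kinase that marks MYC for decay, from 90.8 and 91.3 to 64.0 and 57.2 CPM. The ubiquitin ligase gene FBXL14 is named after its values were seen, since its mean was under the 10 CPM set for naming (285, 267, 92 and 122 counts, log2 fold change -1.33, adjusted p = 0.0201, edgeR). So the 4 members called lower included both guards (AURKA, SET) and promoters (GSK3A, FBXL14) of MYC decay. GSK3A passed narrowly, at a log2 fold change of -0.59 (adjusted p = 0.0250, edgeR). FBXW7 and GSK3B, at 0.40 and 0.12, did not pass. By sign alone, 15 members of the list were down and 9 up. Past the threshold, 3 were lower and 1 higher with upper-quartile scaling, 4 and 1 in DESeq2, and 6 and 0 in limma-voom.

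Of 20 MYC coactivators and cofactors, 3 were lower, or 15%, and 1 higher, beside 5.97% and 4.97% of all genes tested. The histone acetyltransferase genes KAT5 (TIP60) and KAT2A (GCN5) fell, KAT5 from 43.0 and 45.4 to 25.8 and 21.5 CPM (log2 fold change -0.90, SE 0.123, adjusted p = 0.0221, edgeR) and KAT2A from 54.7 and 59.9 to 35.03 and 31.0 CPM (log2 fold change -0.79). TRIM28, a corepressor, also fell, with a log2 fold change of -0.67. DNMT3A, a DNA methyltransferase that MYC can bring to repressed genes, rose from 20.9 and 20.3 to 31.9 and 35.4 CPM (log2 fold change 0.71, SE 0.0997, adjusted p = 0.0231, edgeR). On the repressor side, the SIN3-HDAC list holds the corepressor of the MXD proteins and MNT. It had 1 of 22 lower, or 4.55%, near the share of all genes tested, and 0 higher, with a median of -0.05. The gene that fell was SAP130 (log2 fold change -0.59, adjusted p = 0.0203, edgeR). The PRC1.6 list of MGA had 2 of 16 lower, the heterochromatin protein gene CBX3 (log2 fold change -0.84) and the histone methyltransferase gene EHMT2 (log2 fold change -0.80, from 93.5 and 96.3 to 55.3 and 54.1 CPM), and a median of 0.03.

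The targets of the network came next. Of 71 tested MYC-activated targets, 7 were lower past the threshold, or 9.86%, and 0 higher, beside 5.97% and 4.97% of all genes tested. The list's median was -0.14. TFAM, which maintains mitochondrial DNA, fell from 72.8 and 70.5 to 32.7 and 26.2 CPM (log2 fold change -1.28, SE 0.131, adjusted p = 0.0177, edgeR). PA2G4, a growth regulator, and UNG, a uracil DNA glycosylase, had log2 fold changes of -1.01 and -0.89, and the other 4 were CAD, MCM4, CBX3 and SORD, which are named here after their values were seen. The 2 PRMT3-KD libraries differed in this list, with medians of -0.01 and -0.31 against Ctrl. Of all 13172 genes tested, DESeq2, limma-voom and the fit with the replicate block called 992, 902 and 801 lower. In either direction they called 13.9%, 12.8% and 11.1%. Of the 71, they called 13, 13 and 12, all lower. In edgeR the number of the 71 past the threshold depended on which library was left out, as it did for all genes tested. Of 14 MYC-repressed targets, 1 was higher, CDKN1B, the CDK inhibitor p27, which rose from 44.2 and 42.2 to 65.0 and 70.7 CPM (log2 fold change 0.65, SE 0.0859, adjusted p = 0.0212, edgeR). CDKN1A, the CDK inhibitor p21, went the other way, from 29.4 and 28.8 to 19.0 and 19.8 CPM, just short of 1.5-fold. ITGB4 was also down, at -0.74, and did not pass. CDKN1A and ITGB4 are named after their values were seen. By sign alone, 10 of the 14 were up and 4 down. The median of this list was 0.28, with 0.01 in the first and 0.28 in the second PRMT3-KD library. DESeq2 and limma-voom each called 2 of the 14 higher and 1 lower. The count in edgeR also depended on which library was left out. Of 8 tested MondoA-MLX targets, ARRDC4, an arrestin that curbs glucose uptake, was higher, from 26.4 and 22.3 to 35.5 and 40.4 CPM (log2 fold change 0.64, adjusted p = 0.0426, edgeR), a call lost with the replicate block. TXNIP, the best known target of MondoA, had 83.4 and 81.1 CPM in Ctrl and 120 and 88.4 CPM in PRMT3-KD libraries and did not pass. The median of these 8 targets was 0.19, with 0.40 in the first and -0.11 in the second PRMT3-KD library. By sign alone, 5 were up and 3 down.

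Proliferation markers moved in the same libraries. All 16 had lower values in each PRMT3-KD library than in either Ctrl library, as did 33.8% of all genes tested. In edgeR 8 of 16, or 50%, passed the threshold as lower, beside 5.97% of all genes tested. The number was 13 in DESeq2, 13 in limma-voom and 12 with the replicate block. The median log2 fold change of the 16 was -0.74, below that of the 10 network genes. As for all genes tested, the number of the 16 markers past the threshold in edgeR depended on which library was left out. Their summed level was 4229 and 4205 CPM in Ctrl and 2590 and 2009 CPM in PRMT3-KD libraries. AURKB, TYMS and TOP2A had the largest drops, with log2 fold changes of -1.29, -1.23 and -1.17. Markers of other cell types, 9 of 13 in the table, summed to 57.6 and 60.2 CPM in Ctrl and 103 and 148 CPM in PRMT3-KD libraries. Most of this was KRT18, an epithelial keratin, which rose from 32.4 and 34.1 to 74.2 and 98.2 CPM (log2 fold change 1.37, adjusted p = 0.0192, edgeR), and in the second PRMT3-KD library CDH5, an endothelial cadherin, with 722 counts beside 129 to 146 in the other 3. Of the GBM and glial markers, SOX9 fell (log2 fold change -0.65, adjusted p = 0.0215, edgeR). The part of these markers in the values of MYC and the MXD genes was not tested.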

How the data were processed

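The authors deposited whole-number counts per gene for 4 libraries, and per the labels and the methods reads were aligned to hg19 with TopHat, counted with Cufflinks and compared with DESeq2, with CASAVA also named. Versions, annotation and strand are not given in the sources used here. Of 15576 entries, 1 duplicate was removed, and 15560 identifiers matched GENCODE 44 on GRCh37, which gave coordinates and lengths. No deposited column was left unused. Groups came from the labels.

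The main test used edgeR 4.0.16 in R 4.3.3 (filterByExpr with a minimum count of 10 and total of 15, TMM, glmQLFit and glmQLFTest), although the study's tool is DESeq2. Benjamini-Hochberg adjustment ran over all 13172 genes tested. TMM factors lay between 0.955 and 1.02. The alternatives were DESeq2 1.42.0, limma-voom (limma 3.58.1) with group weights, upper-quartile scaling, library totals, other filters, other fold thresholds, the replicate number as a block, each library left out, and canonical transcript length. Scripts were tested on simulated data with the same dispersion in both groups. The real pairs differed in spread, with a chi-square per degree of freedom of 1.41 in Ctrl and 66.7 in PRMT3-KD libraries. The simulation therefore did not cover unequal spread. Depth limits the precision of genes with few counts, and intervals between libraries rest on 2 per group.

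The named genes are the 10 members, PRMT3, the paralogs, up to 3 called genes per list and direction whose mean reached 10 CPM, the 3 genes nearest in pattern, and markers of cell types. The members and lists were chosen with earlier results of these data known. Promoters came from RefSeq. A few named genes and 1 sequence window are not reported here.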

Additional observations from a re-analysis of the deposited data

How the results depend on the processing

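With all 4 libraries kept, the alternatives to the test, scaling, filter and block left the sign of each of the 10 genes as it was, and of 70 such results 65 kept their side of the threshold, 3 gained and 2 lost the call. MXD3 passed in all of them. MXD4 gained the call in DESeq2, limma-voom and the fit with the replicate block, and MXI1 lost it in limma-voom and with the block. When 1 library at a time was left out, the log2 fold change of MNT ran from -0.14 to 0.08, turning to 0.0194 without the second Ctrl library and to 0.0788 without the first PRMT3-KD library, and that of PRMT3 ran from -3.61 to -2.68. The number of the 10 genes past the threshold ran from 0 to 4, that of listed genes from 0 to 45 (19 with all libraries), and that of all genes from 0 to 3066 (1441 with all libraries). The count was 0 without either Ctrl library, where the spread comes from the PRMT3-KD pair alone and 1842 and 1868 genes had an unadjusted p under 0.05, and it was 3066 and 2989 without the first and the second PRMT3-KD library, where it comes from the Ctrl pair alone.

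With no fold threshold 2278 genes and 41 listed genes passed, and with 2-fold 512 genes, 1 of the 10 (MXD3) and 3 listed genes did. Listed genes past the threshold were 29 in DESeq2 and 30 in limma-voom. The cause of these differences was not tested. Replicate numbers were not taken as pairs: across 13172 genes, the difference between replicates 1 and 2 in Ctrl had a correlation of 0.0580 with that in PRMT3-KD libraries. With the replicate number as a block, 1464 genes, 2 of the 10 (MXD3 and MXD4) and 25 listed genes passed, and PRMT3 had a log2 fold change of -3.11. Levels per kilobase of the canonical transcript were higher for each of the 10 genes, with MAX in Ctrl at 14.8 in place of 4.74. They moved MXD3 from place 4 to place 3 in Ctrl. The depth leaves MYCL and MLXIPL, with at most 56 counts, without a firm value.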
